A study of Mus musculus with 101 samples.

Results

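Ribosome-bound RNA was precipitated from astrocytes of mouse prefrontal cortex 2 days after an injection of lipopolysaccharide (LPS) and compared with the same fraction after phosphate-buffered saline (PBS). The libraries labelled day 2, PFC and IP were taken, which gave 7 of the 101 libraries of the series. The 3 LPS libraries came from 2 females and 1 male of the strain labelled C57 that received LPS at 5 mg per kg into the peritoneum. The 4 PBS libraries came from 2 females and 2 males of the same strain that received PBS by the same route. In all groups the IP was pulled down with an antibody against a hemagglutinin tag on astrocyte ribosomes, and polyA RNA was sequenced. The labels name neither the tagged protein, nor the promoter or recombinase that placed the tag in astrocytes, nor the age of the mice, and they do not say whether each library is 1 animal. All p-values thus rest on how far libraries of a group differ, which may be technical. Libraries are called LPS 1 to 3 and PBS 1 to 4, and these numbers are names with no pairing between groups. LPS 1, PBS 2 and PBS 3 were male.

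LPS is a cell wall component of Gram-negative bacteria that macrophages and endothelial cells sense through Tlr4. The cytokines and interferons they release reach the brain, where astrocytes respond without meeting the bacterium. Interferons bind receptors that activate transcription factors such as Stat2 and Irf9, which act at interferon-stimulated response elements (ISRE) in front of antiviral and antigen-presentation genes. Astrocytes also make most of the cholesterol of the adult brain, under the transcription factor SREBP2, which binds sterol response elements (SRE) when cell sterols are low.

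The 7 libraries held 41.19 to 50.67 M reads (M, mega-) each, worked back from the deposited values. Levels below are deposited FPKM (reads scaled to gene length and library depth) divided by a scaling factor per library, written as FPKM. All 20 astrocyte marker genes were higher in the PBS IP than in the PBS input of the same area and day, the lysate before precipitation. Their ratios of IP to input ran from 9.45 to 39.4, with a median of 24. All 16 neuronal markers were lower in the IP, at 0.036 to 0.194 of the input. Summed neuronal markers came to 147 to 173 FPKM in the LPS libraries and 160 to 270 FPKM in the PBS libraries, the highest being PBS 3 and PBS 2. None of the 16 neuronal genes passed the test for LPS. Since the samples are bulk tissue extracts, fewer cells of a type and less RNA per cell cannot be told apart.

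Promoter sequence is shown for some genes of the 2 main responses. A larger set of interferon and cholesterol genes was searched, and only genes with a match in front of the gene were kept. That each window holds a match is thus set by this choice. The sequence is as RefSeq gives it on the build GRCm38.p6, read 5′ to 3′ on the gene's own strand and cut at the annotated gene start. Capitals mark the letters GAAANNGAA, a core of the ISRE, or their reverse complement in the first 4, and TCACNCCAC, a core of the SRE, in the last. The windows lie at chr4:156200852-156200932 (minus strand), chr12:26456527-26456607 (minus), chr3:142559964-142560015 (plus), chr8:71537558-71537638 (minus) and chr13:119690178-119690258 (plus), all in front of the gene.
Isg15: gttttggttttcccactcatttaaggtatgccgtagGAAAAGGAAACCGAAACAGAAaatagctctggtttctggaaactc
Rsad2: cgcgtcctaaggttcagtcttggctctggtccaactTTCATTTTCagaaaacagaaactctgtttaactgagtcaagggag
Gbp3: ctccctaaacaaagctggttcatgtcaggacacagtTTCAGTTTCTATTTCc
Bst2: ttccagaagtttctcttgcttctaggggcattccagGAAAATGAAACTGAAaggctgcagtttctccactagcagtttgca
Hmgcs1: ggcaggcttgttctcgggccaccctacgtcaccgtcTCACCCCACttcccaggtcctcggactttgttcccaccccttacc
The Isg15 window held 3 overlapping matches, Gbp3 and Bst2 2 overlapping matches each. From 250 bases before to 50 bases after the start, the ISRE letters stood on either strand in 8.53% of the 9824 tested genes with a promoter entry. They stood in 14 of 26 promoters (53.8%) of the interferon-stimulated effectors and in 7 of 7 of the interferon-induced GTPases. The share was 17.1% of 531 promoters of genes that rose after LPS and 6.16% of 276 of those that fell. The SRE letters stood in 1 of 18 promoters of the cholesterol list, that of Hmgcs1, against 1.34% of all tested genes. These are matches of letters within a fixed window and are not evidence of binding.

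LPS changed 1072 of 13430 tested genes in the PFC IP at an adjusted p under 0.05, which is 7.98% (limma on log2 of FPKM plus 0.1, with sex as a covariate, fitted together with the 8 IP libraries of visual cortex of the same day, which share the estimate of the spread). Of these, 696 were higher after LPS, 5.18% of the tested genes, and 376 were lower, or 2.8%. With the 7 PFC libraries alone 704 genes were called, 190 of them lower, and without the sex covariate 232 were lower. The increases were larger. The median log2 change was 0.81 for the genes that rose and -0.33 for those that fell, and 314 rose and 7 fell by 2-fold or more. Many of the genes that rose were scarce in PBS: 285 of 696 averaged under 1 FPKM there, against 14 of the 376 that fell. The groups did not overlap for 673 of the genes that rose and 340 of those that fell. Over all tested genes, called or not, every LPS library lay above every PBS library for 1397 (10.4%) and below for 1219 (9.08%). A gene was tested where at least 3 libraries reached 0.5 FPKM, so that a gene scarce in PBS could enter through the LPS libraries alone. The counts of the lists below are therefore also given for the members that averaged at least 0.5 FPKM in PBS where the list holds several that did not, a split made after the values were seen. Without rescaling between libraries the counts were 644 higher and 535 lower. Without LPS 1, 610 genes were called (450 higher, 160 lower), and without PBS 2, 713 (194 lower). Without PBS 1, 209 genes were lower, and without PBS 4, 247.

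**Figure D1:**
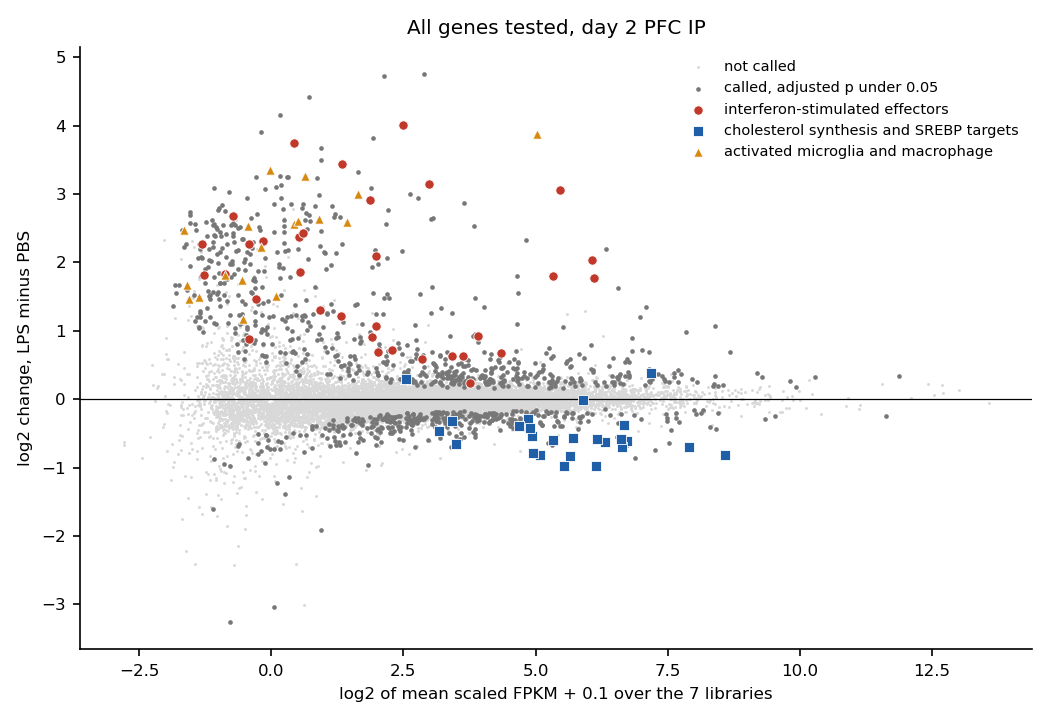
Log2 change (LPS minus PBS) of every tested gene against its mean level, log2 of scaled FPKM plus 0.1 over the 7 libraries, with genes passing the test in dark grey and 3 gene lists in colour. The interferon-stimulated effectors lie above 0 over a wide range of levels. The activated microglia and macrophage genes lie above 0 mostly at low levels, as 15 of the 18 tested averaged under 0.5 FPKM in PBS. The cholesterol genes lie mostly between 0 and -1 at high levels.

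Interferon-stimulated genes rose after LPS. Among the effectors, proteins that block viral entry, replication or release, 31 of 33 tested genes rose and none fell, with a median log2 change of 1.81 (all tested genes: -0.015). Of the 21 that averaged at least 0.5 FPKM in PBS, 19 rose. A further 8 listed genes stayed under the filter on low values, and 1 was not matched. The list was summed at 542 to 656 FPKM in LPS libraries and 171 to 188 FPKM in PBS libraries. The 2 effectors that did not pass were Cmpk2 and Ube2l6, at log2 changes of 0.67 and 0.71. Rsad2, an enzyme that makes a chain-terminating nucleotide, had 3.63, 2.44 and 4.89 FPKM in LPS libraries and 1.80, 0.968, 1.28 and 1.775 FPKM in PBS libraries. The groups did not overlap, and its log2 change of 1.21 ± 0.34 lay close to the threshold (adjusted p = 0.0478).

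Oasl2 (chr5:114896926-114912245, RefSeq on GRCm38.p6), a relative of the oligoadenylate synthetases that sense foreign RNA, had 10.3, 8.87 and 16.7 FPKM in LPS 1 to 3. The PBS libraries had 0.532, 0.598, 0.580 and 0.771 FPKM, so that every LPS library stood above every PBS library. Its log2 change was 4.01 ± 0.28 (SE, adjusted p = 4.54e-06). Isg15, a ubiquitin-like protein that is joined to other proteins, had 4.47, 2.94 and 8.06 FPKM after LPS and 0.292, 0.282, 0.244 and 0.615 FPKM after PBS. Ifi44 reached 1.76, 2.48 and 4.04 FPKM in LPS libraries and stayed at or under 0.160 FPKM in all 4 PBS libraries. For both genes LPS 3 was the highest library.

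Ifitm3, a membrane protein that restricts virus entry, varied little within groups. It had 88.0, 87.2 and 89.2 FPKM in the LPS libraries and 11.6, 10.1, 10.3 and 10.5 FPKM in the PBS libraries, a log2 change of 3.05 ± 0.12 (adjusted p = 6.17e-09). Bst2, or tetherin, which holds budding virus at the cell surface, rose by 3.15 ± 0.24 on the log2 scale. The abundant members were Ifi27, with 115 ± 10.8 FPKM after LPS and 34.0 ± 2.80 FPKM after PBS (SD, n = 3 and 4), and the secreted Lgals3bp, with 118 ± 9.02 FPKM and 28.6 ± 1.32 FPKM. Ifit3, which binds foreign RNA, had 53.5, 58.7 and 91.7 FPKM in LPS libraries and 18.6, 20.99, 18.7 and 16.8 FPKM in PBS libraries. Ifit3 has a close copy in the mouse genome, and how the authors' counting treated such pairs is not given in the sources used here.

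Of 16 interferon-induced GTPases in the files 10 passed the filter, and these 10 rose, with a median of 1.75. They included the 7 that averaged at least 0.5 FPKM in PBS. These proteins gather on the membranes of intracellular parasites. Gbp3 had 13.04, 10.3 and 23.3 FPKM after LPS, against 1.91, 2.64, 2.11 and 2.51 FPKM after PBS. Iigp1 rose by 3.25 ± 0.40, Gbp6 by 2.27 ± 0.26 and Igtp by 1.53 ± 0.24. LPS 3 was the highest and LPS 2 the lowest LPS library for 10 of these 10 genes. Among the 31 effectors that rose, LPS 3 was highest for 27 and LPS 2 lowest for 25. Over all 696 genes that rose, LPS 3 was highest for 354 and LPS 2 lowest for 274. Both LPS 2 and LPS 3 were female.

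The interferon signalling genes moved unevenly. Of 24 tested, 12 rose and none fell. Of the 22 that averaged at least 0.5 FPKM in PBS, 10 rose. Among the transcription factors that carry the signal, Irf7 rose by 2.82 ± 0.23, Irf9 by 1.64 ± 0.13 and Stat2 by 0.82 ± 0.07. Usp18, which removes Isg15 and dampens the receptor, rose by 3.08 ± 0.42. The RNA sensors Ifih1 and Ddx58 rose by 1.25 and 1.08. The receptor chains Ifnar1, Ifnar2 and Ifngr2 and the kinases Jak1, Jak2 and Tyk2 did not pass the test, with log2 changes between -0.20 and 0.16.

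Genes of antigen presentation by MHC class I rose in 16 of 17 tests and fell in none, with a median of 0.787. The exception was H2-M3. The immunoproteasome subunit Psmb8, which cuts peptides for presentation, had 11.6, 10.3 and 14.7 FPKM in LPS libraries and 1.69, 1.17, 1.17 and 1.75 FPKM in PBS libraries. The peptide transporter gene Tap1 rose by 1.24 ± 0.17. The light chain B2m had 179, 201 and 174 FPKM after LPS, against 81.9, 76.0, 75.7 and 88.3 FPKM after PBS. Of the heavy chains, H2-D1 rose by 2.33 ± 0.25, H2-T23 by 2.94 ± 0.24 and H2-K1 by 0.79 ± 0.13. The heavy chains are a family of near-identical genes, so reads may be split among them. The 6 tested MHC class II genes, including Cd74, did not pass the test and had a median of -0.017.

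Complement genes, which tag cells and debris for removal, rose in 11 of 14 tests and fell in none, with a median of 1.96. Of the 9 that averaged at least 0.5 FPKM in PBS, 6 rose. C4b was the most abundant, with 153, 167 and 120 FPKM in LPS libraries and 35.7, 29.6, 26.7 and 34.7 FPKM in PBS libraries, a log2 change of 2.19 ± 0.13. C3 had 1.61, 3.12 and 1.93 FPKM after LPS and 0.200, 0.0996, 0.121 and 0.199 FPKM after PBS. Cfb, the protease of the alternative pathway, rose by 3.91 ± 0.31 and had at most 0.0508 FPKM in any PBS library. The inhibitor Serping1 rose by 1.55 ± 0.28. The 3 chains of C1q also rose, C1qa by 2.07 ± 0.21. They are made mainly by microglia in brain, and C1qa in the PBS IP stood at 0.0785 of its input level.

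**Figure D2:**
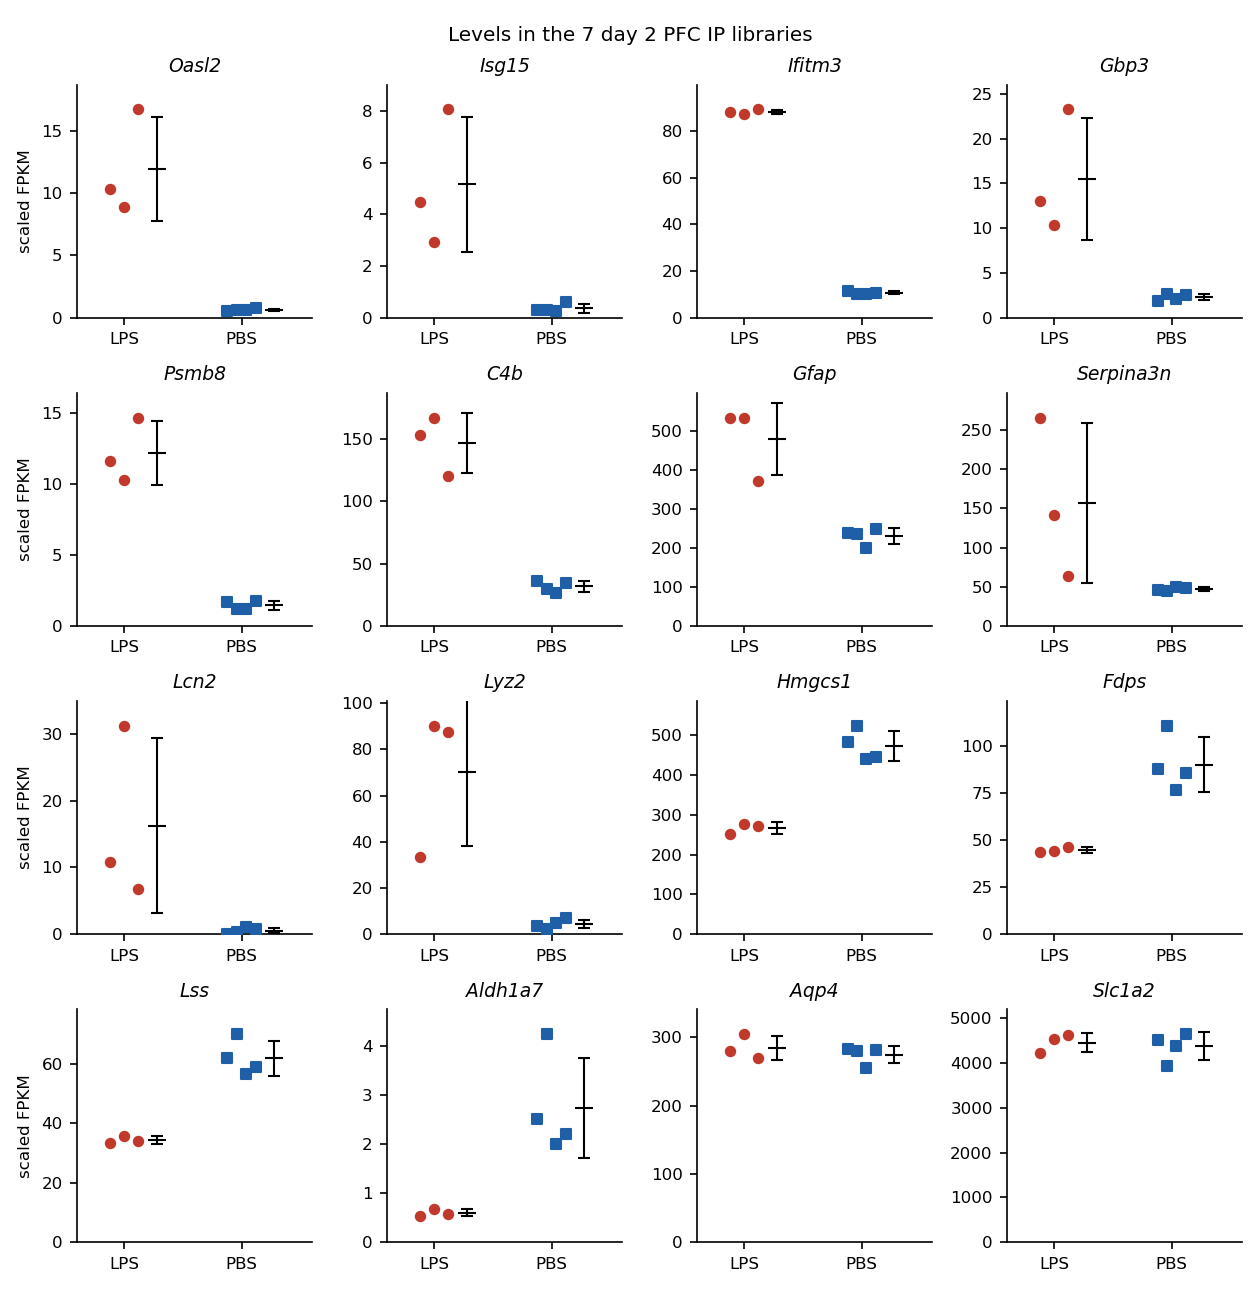
Level in each of the 7 libraries (scaled FPKM, axes from 0) of 16 genes, LPS left and PBS right, with the mean and SD (n = 3 and 4) beside the points. The first 10 genes and Hmgcs1, Fdps, Lss and Aldh1a7 have groups that do not overlap, Serpina3n spans 63.7 to 266 FPKM after LPS, and Aqp4 and Slc1a2 overlap between groups.

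Astrocyte reactivity genes rose and varied among the LPS libraries. Of the pan-reactive genes, those that rise in astrocytes after several kinds of injury, 10 of 12 tested rose and none fell, with a median of 1.11. The 10 included the 8 that averaged at least 0.5 FPKM in PBS. Gfap (chr11:102887336-102897200), the intermediate filament by which reactive astrocytes are recognised, had 533, 534 and 373 FPKM in LPS libraries and 239, 235, 199 and 248 FPKM in PBS libraries, a log2 change of 1.07 ± 0.15 (adjusted p = 0.000576). Vim, its partner filament, rose by 0.70 ± 0.14, and did not pass without LPS 1 (adjusted p = 0.0723) or with female libraries only (0.157). Lcn2, a secreted iron-carrier protein, had 10.9, 31.2 and 6.73 FPKM after LPS, against 0.0942, 0.324, 1.03 and 0.708 FPKM after PBS, a log2 change of 4.75 ± 0.79 (adjusted p = 0.00287), and did not pass with limma-voom on the recovered reads (adjusted p = 0.0562).

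Serpina3n, a secreted protease inhibitor, had 266, 142 and 63.7 FPKM in LPS libraries, all above the 45.8, 44.8, 49.2 and 48.7 FPKM of the PBS libraries. LPS 1 was the highest and LPS 3 the lowest of the LPS libraries. Its log2 change of 1.62 ± 0.43 passed the test at an adjusted p of 0.0398. It passed without LPS 3 (adjusted p = 0.0153) but not without any other of the 7 libraries, with adjusted p between 0.0542 and 0.234. Nor did it pass without the sex covariate (0.0954), with the PFC libraries alone (0.105) or with female libraries only (0.266). LPS 3, the highest library for most interferon genes, was the lowest of the LPS libraries for 6 of the 10 pan-reactive genes that rose. It was the lowest for 153 of all 696 genes that rose. Timp1, a metalloprotease inhibitor, had 0.967, 5.86 and 0.254 FPKM after LPS and did not pass the test (log2 change 2.64 ± 0.83, adjusted p = 0.0762).

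Of the 12 tested genes of the so-called A1 list, 10 rose and none fell, with a median of 2.16. Of the 10 in the A1 list that averaged at least 0.5 FPKM in PBS, 8 rose. This list was drawn from astrocytes after LPS in other work and shares Iigp1, Gbp2, Psmb8, H2-T23 and H2-D1 with the interferon and MHC lists and C3 and Serping1 with the complement list. Besides these, Fbln5, an elastic fibre protein, had 4.56, 1.99 and 4.05 FPKM in LPS libraries and 0.648, 0.430, 0.813 and 0.911 FPKM in PBS libraries. Fkbp5 and Amigo2 did not pass, at 0.64 and 0.22. Of 12 A2 genes in the files 6 were tested and 1 rose, Cd14, an LPS co-receptor that macrophages also express. Of the 2 A2 genes that averaged at least 0.5 FPKM in PBS, 0 rose, so Cd14 was among those scarce in PBS.

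Acute phase and cytokine genes were mixed. Of 15 tested genes of the STAT3 pathway and acute phase, 9 rose and 1, the kinase gene Pim3, fell by 0.57. Of the 10 that averaged at least 0.5 FPKM in PBS, 5 rose. Saa3, a serum amyloid, had 13.5, 4.28 and 11.2 FPKM after LPS and 0.114, 0.200, 0.390 and 0.438 FPKM after PBS. Stat3 itself rose by 0.53 ± 0.09 and its feedback inhibitor Socs3 by 1.56 ± 0.22. Of 24 tested cytokine and receptor genes 11 rose, 7 of them among the 18 at 0.5 FPKM or more in PBS, and none fell, among them Osmr, the oncostatin M receptor, by 0.97 and Csf1, a growth factor for microglia, by 0.58 ± 0.10. Cxcl10, which attracts T cells, had 3.22, 2.99 and 5.39 FPKM in LPS libraries and 0.0548, 0.271, 0.188 and 0.676 FPKM in PBS libraries, and did not pass with female libraries only (adjusted p = 0.123). Tlr4 did not pass the test, at 0.16, and of 17 NF-kB genes 2 rose, Icam1 and Nfkbiz. Of the 15 NF-kB genes that averaged at least 0.5 FPKM in PBS, 1 rose.

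Genes of myeloid cells also rose. Of 22 markers of activated microglia and macrophages, 18 passed the filter and rose, but 15 of these averaged under 0.5 FPKM in PBS, so that this count is partly set by the filter. The other 3 were Lyz2, Cd52 and Fcer1g, and with a minimum of 1 FPKM 11 markers rose. Cst7, Ms4a7, Cd163 and Lyve1 were not tested. The whole list summed to 59.5, 127 and 128 FPKM in LPS 1 to 3, against 7.998, 6.942, 10.19 and 12.03 FPKM in PBS 1 to 4. Lyz2, a lysozyme of myeloid cells, made up most of it in LPS libraries, with 33.3, 90.1 and 87.3 FPKM after LPS and 3.42, 2.44, 4.88 and 6.86 FPKM after PBS. Of the named genes, Cybb (the NADPH oxidase subunit of phagocytes), Itgb2 (a leukocyte integrin chain), Marco (a macrophage scavenger receptor) and Myo1g (a myosin of blood cells) rose by 3.26, 3.32, 4.15 and 3.27. Marco did not pass with limma-voom on the recovered reads (adjusted p = 0.09) or with female libraries only (0.103). Wfdc17 had 2.22, 3.43 and 4.90 FPKM in LPS libraries and 0, 0.0908, 0 and 0.198 FPKM in PBS libraries, a log2 change of 4.42 ± 0.52.

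Of 13 tested neutrophil and monocyte genes 11 rose, 2 of them among the 4 that averaged at least 0.5 FPKM in PBS. They included Chil3 by 3.81 ± 0.53, Hp by 3.67 ± 0.41 and S100a8 by 2.87 ± 0.60. Their list summed to 52.5, 54.1 and 132 FPKM in LPS libraries and 6.83, 5.88, 20.8 and 12.5 FPKM in PBS libraries. Of the homeostatic microglia markers 7 of 16 rose, Tyrobp, Csf1r, Aif1, Cx3cr1 and the C1q chains, whereas P2ry12 and Tmem119 did not pass the test, at 0.08 and 0.42. Of 11 endothelial markers 5 rose, 2 of them among the 5 at 0.5 FPKM or more in PBS. None of 9 oligodendrocyte or 5 pericyte markers passed. No marker of these myeloid lists was at 0 in all 7 libraries. The part of these cells in the changes of other genes was not tested.

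**Figure D3:**
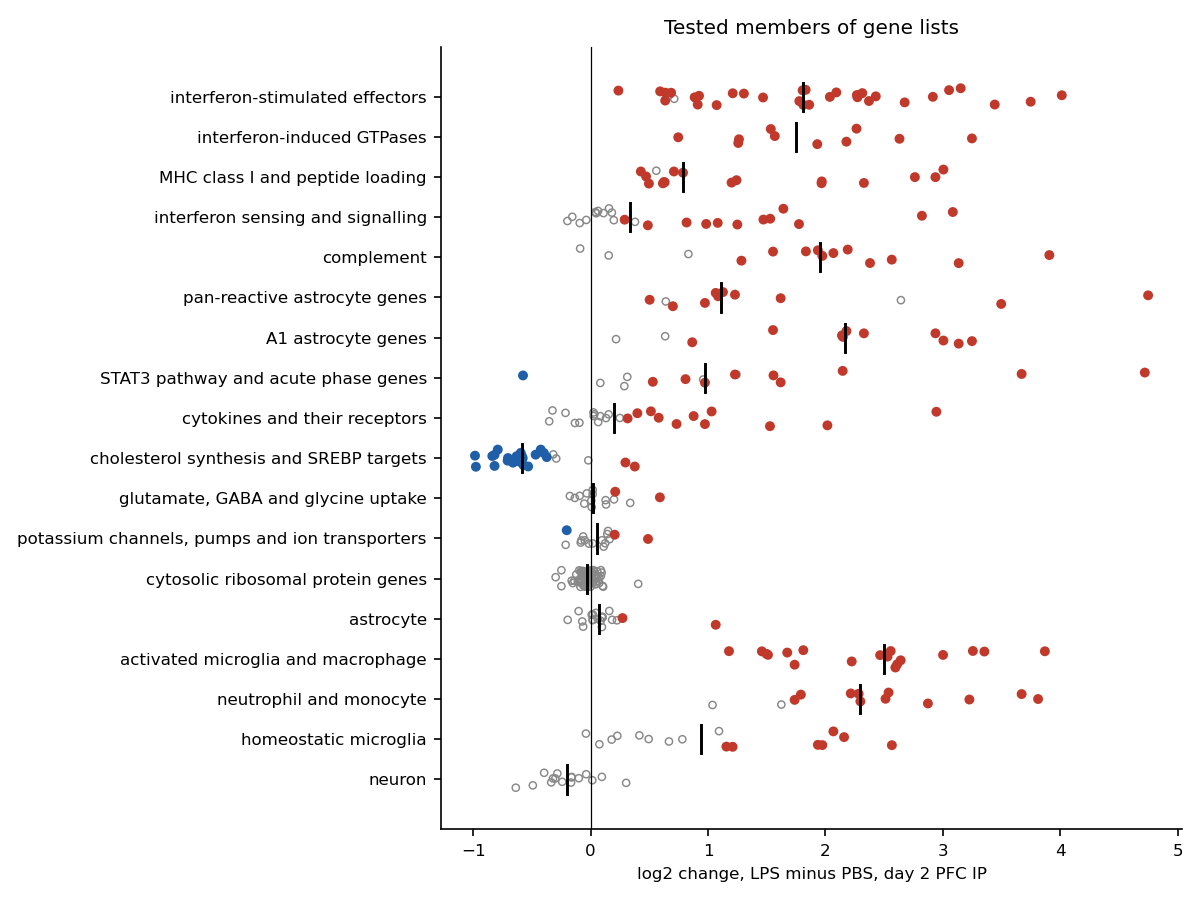
Log2 change (LPS minus PBS) of each tested member of 18 gene lists, with members that rose in red, members that fell in blue, members that did not pass the test as open circles, and the list median as a bar. The interferon, MHC class I, complement and myeloid lists lie above 0, the cholesterol list below 0, and the transporter, channel and ribosomal protein lists close to 0.

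Genes of cholesterol synthesis fell. Of 25 tested genes of this route and its SREBP targets, 20 fell and 2 rose, with a median of -0.585. The list summed to 1408, 1502 and 1473 FPKM in LPS libraries and 2201, 2391, 1964 and 2094 FPKM in PBS libraries, without overlap. The genes that fell covered the route from acetyl units to sterol. Hmgcs1 (chr13:119690351-119708260), which forms HMG-CoA, had 251, 278 and 272 FPKM after LPS and 483, 523, 441 and 444 FPKM after PBS, and fell by 0.82 on the log2 scale (SE 0.10, adjusted p = 9.32e-05).

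Of the mevalonate enzymes, Mvk had 21.7, 22.97 and 25.8 FPKM in LPS libraries and 42.2, 45.8, 38.2 and 39.3 FPKM in PBS libraries. Mvd fell by 0.98 (SE 0.15). Fdps, which makes farnesyl diphosphate, had 43.7, 44.5 and 46.5 FPKM after LPS, against 87.8, 111, 77.0 and 85.5 FPKM after PBS. Its LPS values lay close together, and the lowest PBS library stood well above them. Lss, which closes the sterol rings, had 33.4, 35.7 and 33.9 FPKM in LPS libraries and 61.9, 69.8, 56.4 and 58.7 FPKM in PBS libraries. Sqle fell by 0.58, Tm7sf2 by 0.79 and Insig1, the sterol-regulated anchor of SREBP, by 0.61.

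Srebf2, which encodes SREBP2, did not pass, at -0.02 ± 0.06. Srebf1 and Ebp rose, by 0.38 ± 0.07 and 0.30 ± 0.08. Acss2, which makes acetyl-CoA from acetate, fell by 0.86 (SE 0.09), with 78.8 to 82.4 FPKM in LPS and 127 to 165 FPKM in PBS libraries, and Aacs, which activates acetoacetate, fell by 0.74. Of 24 tested genes of fatty acid oxidation and synthesis 4 fell, among them the synthase Fasn by 0.45 and the desaturase Scd1 by 0.41, while 2 rose and 18 did not pass, with a median of -0.031. Of 15 tested genes of cholesterol efflux and lipoproteins 4 rose and none fell: Abca1, the efflux pump, by 0.47 ± 0.09, the apolipoproteins Apod by 1.79 ± 0.46 and Clu by 0.34 ± 0.06, and Cyp27a1 by 0.56. The other named genes that fell were Aldh1a7, Snora23, Tmem37, Hist1h2bf, Lpin3, Gucy2e and Igfbp2. Aldh1a7, an aldehyde dehydrogenase, had 0.544, 0.684 and 0.577 FPKM after LPS and 2.52, 4.24, 2.00 and 2.20 FPKM after PBS, a log2 change of -1.92 ± 0.28. Igfbp2, a secreted binder of insulin-like growth factors, had 98.9, 112 and 125 FPKM in LPS libraries and 188, 194, 162 and 192 FPKM in PBS libraries. Snora23 is a small nucleolar RNA and Hist1h2bf a histone gene. Such RNAs mostly lack a polyA tail. Without LPS 1, Lpin3, Aacs and Gucy2e did not pass. Without LPS 2, Snora23 and Gucy2e did not, without LPS 3, Snora23 and Aacs, without PBS 1, Snora23 and Gucy2e, and without PBS 2 or PBS 3, Gucy2e. Gucy2e also failed without the sex covariate (adjusted p = 0.0533), Snora23 with limma-voom (0.0596), Snora23, Aacs and Gucy2e with the PFC libraries alone (0.0617 to 0.079), and Lpin3, Aacs and Gucy2e with female libraries only (0.06 to 0.468).

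Most genes of core astrocyte functions did not pass the test, which also holds for tested genes at large, of which 7.98% passed. Slc1a2, the main glutamate transporter, had 4216, 4517 and 4609 FPKM after LPS and 4516, 3927, 4378 and 4634 FPKM after PBS (log2 change 0.01 ± 0.06, adjusted p = 0.953). The water channel Aqp4 had a log2 change of 0.045 ± 0.077, the connexin Gja1 0.18 ± 0.08, the potassium channel Kcnj10 -0.06 ± 0.17 and Aldh1l1 -0.10 ± 0.05, and none passed the test. Of 16 tested channel and pump genes 2 rose and 1 fell, and of 15 uptake genes 2 rose, among them the cystine transporter Slc7a11 by 0.59 ± 0.07. None of 81 ribosomal protein genes, 80 respiratory chain genes, 19 immediate early genes and 15 cell cycle genes passed. The cell cycle list held 25 genes, and those beyond the 15 stayed under the filter on low values and were not tested. Rpl22, a ribosomal protein, had a log2 change of -0.07 ± 0.07. Of 21 tested synapse-organising factors 2 rose and 2 fell. Sparc, a secreted matrix protein that opposes synapse formation, had 289, 314 and 374 FPKM in LPS libraries and 148, 142, 159 and 185 FPKM in PBS libraries.

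The same comparison in visual cortex (VCX), from 4 LPS and 4 PBS libraries of the day 2 IP, called 973 of 13430 genes, or 7.24%. Of the 696 genes that rose in PFC, 463 also rose in VCX, which is 66.5% of the PFC and 79.6% of the VCX genes. Of the 376 that fell, 184 also fell in VCX, and none of either set was called the opposite way. The difference of the LPS changes, PFC minus VCX, passed the test for none of the 13430 genes (0%), with 508 at an unadjusted p under 0.05 and none with limma-voom. Lcn2 had a log2 change of 4.75 in PFC and 4.60 in VCX, with an SE of 1.07 for the difference. The changes of Gfap were 1.07 in PFC and 1.06 in VCX, and those of Hmgcs1 -0.82 in PFC and -1.18 in VCX. A p that misses the threshold does not show that the areas respond alike.

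In the PFC input of the same day, from 4 LPS and 4 PBS libraries, 555 of 14640 genes were called (3.79%), 515 higher and 40 lower. The difference of LPS changes, IP minus input, passed for 115 of 14524 genes, or 0.792%, of which 67 were above 0 and 48 below. With scaling factors from median ratios these counts were 86 and 36. Without LPS 1, LPS 3, PBS 1 or PBS 2 the total was 75, 68, 58 or 65. Of the interferon-stimulated effectors, 8 of 36 had a larger change in the IP, none a smaller one. Oasl2 changed by 4.01 in the IP and 1.87 in the input, a difference of 2.20 ± 0.26 (adjusted p = 0.00238). Isg15 differed by 2.52 ± 0.49 and Ifitm3 by 1.24 ± 0.15. The call of Isg15 was lost without LPS 1, LPS 3, PBS 1, PBS 2 or PBS 3, with adjusted p between 0.0543 and 0.0847, and with limma-voom (0.0788). The signalling genes Stat2 and Irf9 differed by 0.81 and 0.76. H2-T23 had 13.3 ± 2.67 FPKM after LPS and 1.77 ± 0.645 FPKM after PBS in the IP, against 15.9 ± 4.52 FPKM and 12.3 ± 1.89 FPKM in the input (SD). H2-K1 differed the other way, by -0.84 (adjusted p = 0.0438).

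Of the cholesterol genes 12 of 25 fell in the input. The fall was larger in the IP for 3 of 25, Lss (difference -0.61 ± 0.11), Mvk (-0.58) and Pmvk (-0.58). The difference passed for none of 12 pan-reactive genes; Gfap, for which it was -0.08 ± 0.22, rose by 1.07 in the IP and 1.10 in the input. Genes whose difference lay below 0 included Tmem37 (-1.56 ± 0.24), Aldh1a7 (-1.44), Hist1h2bf (-1.31), Apobec1 (-1.19 ± 0.17) and Lacc1 (-1.04). The calls of Aldh1a7 and Hist1h2bf were each lost without 5 of the 7 libraries, both of them without LPS 2, LPS 3, PBS 1 or PBS 4, Aldh1a7 also without LPS 1 and Hist1h2bf without PBS 2. Both were lost with limma-voom (adjusted p = 0.0866 and 0.051), and Aldh1a7 also with a pseudocount of 0.01, with no filter or without rescaling (0.0544 to 0.0599). Apobec1, a cytidine deaminase, did not pass in the IP at 0.02 and rose by 1.23 in the input.

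Myeloid genes differed in how their levels stood in IP and input. On the common scale of these 15 libraries, the activated microglia and macrophage list summed to 76.5 to 163 FPKM in the LPS IP and 9.17 to 15.6 FPKM in the PBS IP, against 109 to 159 FPKM in the LPS input and 34.5 to 36.2 FPKM in the PBS input. Lyz2 alone averaged 89.1 FPKM in the LPS IP and 37.75 FPKM in the LPS input, so the LPS sums of this list rest largely on 1 gene. In PBS, 4 of its 22 genes had a ratio of IP to input above 1, with a median of 0.302. The homeostatic microglia list was lower in the IP than in the input in both groups. It summed to 105 to 138 FPKM in the LPS IP and 68.3 to 77.0 FPKM in the PBS IP. The input had 474 to 643 FPKM after LPS and 243 to 281 FPKM after PBS. The neutrophil and monocyte list was higher in the IP than in the input in both groups, with 67.5 to 167 FPKM in the LPS IP and 7.76 to 27.2 FPKM in the PBS IP, against 11.4 to 17.4 FPKM and 2.09 to 3.75 FPKM in the LPS and PBS input. In PBS, 13 of its 15 measured genes had a ratio of IP to input above 1, with a median of 8.86. The difference of the LPS changes passed for 2 of 17 macrophage genes, Fcer1g (1.62) and Itgam (1.26), and for 1 of 12 neutrophil and monocyte genes, Mmp9 (1.90). The named genes Wfdc17, Itgb2 and Myo1g also differed, by 2.89 ± 0.59, 1.82 and 1.88. The call of Wfdc17 was lost without any of the 7 libraries other than PBS 4, with a pseudocount of 0.01 (adjusted p = 0.178) and without rescaling (0.0524).

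**Figure D4:**
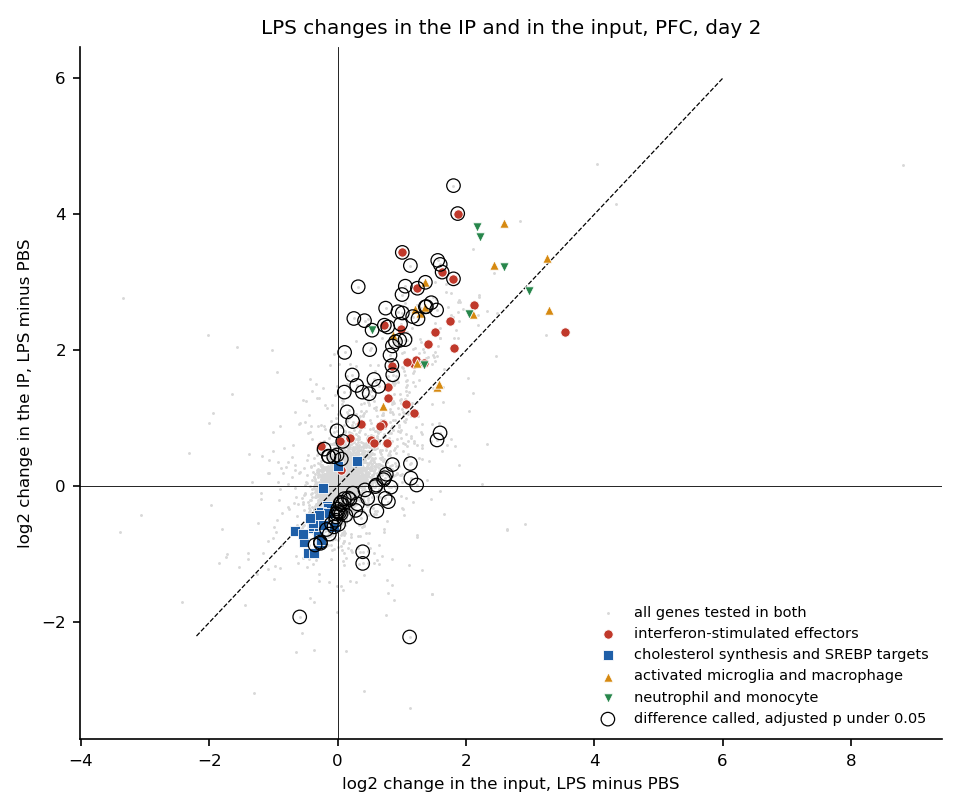
Log2 change (LPS minus PBS) in the IP against that in the input, PFC, day 2, for genes tested in both, with 4 gene lists in colour and circles around genes whose difference passed the test. The dashed line marks equal changes, and most interferon-stimulated effectors and many myeloid genes lie above it.

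At day 1, with 4 LPS and 4 PBS libraries of the PFC IP, 2769 of 13302 genes were called, or 20.8%. Day 1 and day 2 libraries came from different sequencing projects, so day and project cannot be told apart. The change differed between the days, day 2 minus day 1, for 726 of 13372 genes, or 5.43%, with 381 above 0 and 345 below. Without LPS 2 the count was 365, and without PBS 4 455. The difference passed for none of 37 interferon-stimulated effectors and 12 GTPases, with median differences of -0.309 and -0.568, which does not show that the days were alike. Oasl2 rose by 3.43 at day 1 and 4.01 at day 2. Most genes of the myeloid lists did not differ by this test either. It passed for 2 of 16 activated microglia and macrophage genes, 1 of 17 homeostatic microglia genes and 0 of 15 neutrophil and monocyte genes. Of the myeloid genes that passed, Lyz2 rose by 1.95 at day 1 and by 3.87 at day 2, a difference of 1.86 ± 0.46 (adjusted p = 0.0416). This difference did not pass without LPS 2, without LPS 3, or without PBS 1, PBS 2 or PBS 4, nor without the sex covariate (0.0802). Itgb2, Mpeg1, Cybb, Myo1g and Csf1r had differences of 1.79, 1.79, 1.76, 1.87 and 1.34, and Cybb did not pass without the sex covariate (0.0597). PBS means were lower at day 2 for Lyz2 (10.75 FPKM at day 1, 4.40 FPKM at day 2), Itgb2 (1.18, 0.495), Mpeg1 (0.956, 0.575) and Cybb (0.82, 0.213). After LPS the means were 41.5 and 70.2 FPKM for Lyz2, 3.3 and 6.35 FPKM for Itgb2, 1.72 and 4.32 FPKM for Mpeg1, and 2.11 and 3.12 FPKM for Cybb. The part of the PBS levels in these differences was not tested.

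Several genes rose less at day 2 than at day 1. Plin4, a coat protein of lipid droplets that glucocorticoids raise, rose by 3.54 at day 1, to 14.2 ± 2.62 FPKM against 1.15 ± 0.333 FPKM in PBS (SD). At day 2 it averaged 2.14 ± 1.42 FPKM after LPS and 1.0 ± 0.296 FPKM after PBS and still rose, by 1.01 (adjusted p = 0.0314). The stress kinase Map3k6 had 0.451 ± 0.289 FPKM in LPS and 0.304 ± 0.104 FPKM in PBS libraries at day 2, where it was under the filter, against 4.58 ± 0.902 FPKM in LPS and 0.225 ± 0.0725 FPKM in PBS libraries at day 1. The differences for Slco4a1, a transporter, Lao1, an amino acid oxidase, and Saa3 were -2.76, -3.13 and -2.99, and those of Lao1 and Saa3 did not pass with a pseudocount of 0.01 or with limma-voom. Of the A1 genes Amigo2, Fkbp5 and Fbln5 differed, by -1.73, -2.38 and -1.45, and of the pan-reactive genes Osmr by -1.20. For Gfap the difference of -0.59 did not pass (adjusted p = 0.358).

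The change of other genes also differed between the days. Padi2, an enzyme that deiminates proteins, fell by 1.14 at day 1 and had 40.9 ± 8.27 FPKM in LPS and 30.1 ± 1.37 FPKM in PBS libraries at day 2, where it did not pass (difference 1.53 ± 0.13). Of the cholesterol genes 17 of 25 fell at day 1 and 20 at day 2, and the difference passed for Tm7sf2 (-0.68), lower at day 2, and for Srebf1 (0.60). Acss2 fell by 0.29 at day 1 and by 0.86 at day 2 (difference -0.58, adjusted p = 0.00624). Abca1 had a log2 change of -0.27 at day 1 and 0.47 at day 2 (difference 0.76). Of the MHC class II genes 4 of 6 fell at day 1 and none at day 2, with differences of 1.35 for Cd74 and 1.49 for H2-Aa. Kcnj10 fell by 0.89 at day 1 and did not pass at day 2 (difference 0.82 ± 0.18, adjusted p = 0.0184). Of the ribosomal protein genes, 20 of 81 rose at day 1 and none at day 2. More genes were called at day 1 at large: 1464 of 13302 rose and 1305 fell, against 696 and 376 of 13430 at day 2.

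At day 14, with 4 LPS and 4 PBS libraries, none of 13078 genes passed (0%), with 175 at an unadjusted p under 0.05. Of the genes that had risen at day 2, 526 were tested at day 14, with a median log2 change of 0.006 at that day. The 373 tested genes that had fallen had a median of -0.005. Hmgcs1 stood at -0.04, Ifitm3 at 0.25 and Gfap at 0.34. The later libraries came from a further sequencing project, and the difference between day 2 and day 14 was not tested.

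**Figure D5:**
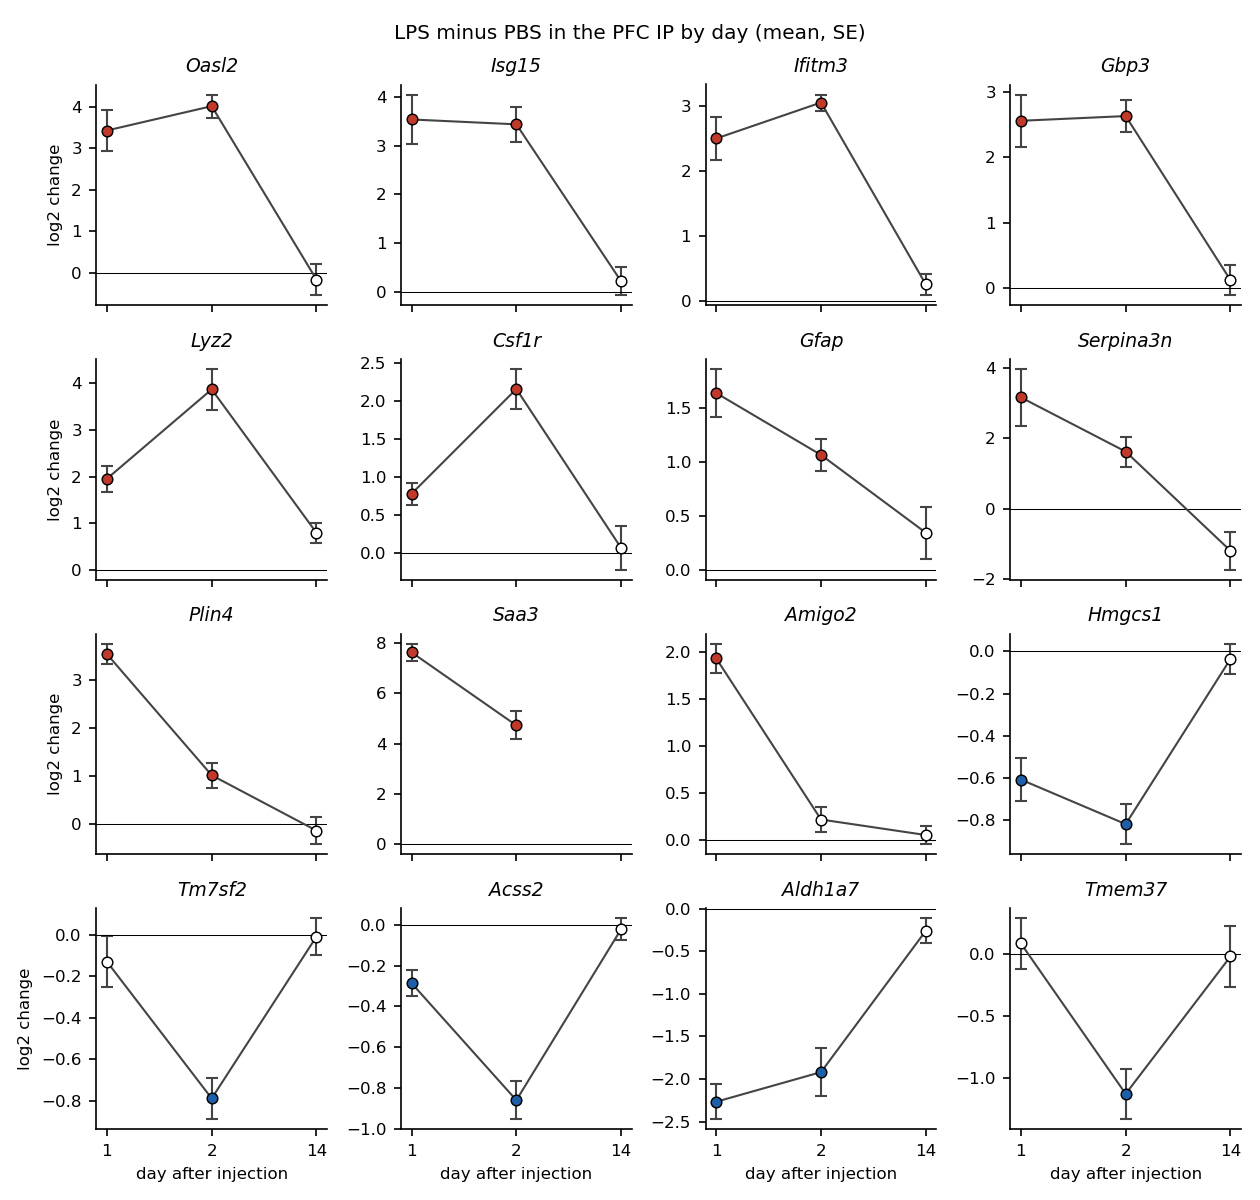
Log2 change (LPS minus PBS) in the PFC IP at days 1, 2 and 14 for 16 genes, with the SE of each fit; filled points passed the test, open points did not, and the days are evenly spaced rather than to scale. Interferon genes are high at days 1 and 2, Plin4, Saa3 and Amigo2 are highest at day 1, Lyz2, Csf1r, Tm7sf2, Acss2 and Tmem37 are furthest from 0 at day 2, and all points shown at day 14 are open.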

How the data were processed

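The authors deposited 1 table of FPKM values per library, with a gene symbol per row. STAR, HTSeq and the build mm10 are named, per the submitters' processing notes, and versions and the multi-read setting are not given in the sources used here. Of 24060 entries, 27 with a date in place of a symbol were left out. Reads, and from them the depths, were worked back with a length per gene chosen to make its values whole multiples of 1 read. The share of values within 0.05 reads of a whole read, 100%, is set by that choice and is no check on the depths. The deposited FPKM were divided by TMM factors (trimming 30% of M and 5% of A values). Genes with 0.5 FPKM in at least 3 libraries of a fit were tested with limma 3.58.1 in R 4.3.3 (trend, robust) on log2(FPKM + 0.1), with sex as a covariate and Benjamini-Hochberg adjustment over all genes tested, at 0.05. Such log2 changes understate the change of low genes. The PFC comparison was fitted with the 8 VCX libraries of the day 2 IP, 15 libraries in all, which share 1 estimate of the spread, and each difference of LPS changes was tested as an interaction. The fit was also run on data simulated from the PFC PBS libraries, without effects of sex or area, and no result here rests on that run. Named in the text are, per direction, the 15 called genes with the largest changes whose groups do not overlap and that average at least 1 FPKM, 5 per direction for each difference, a fixed set of marker genes, and up to 4 called members of each list per direction, plus members needed to say what did not pass. Named after their values were seen were Aif1, B2m, C4b, Csf1, Cx3cr1, Ddx58, H2-K1, Ifi27, Ifih1, Ifit3, Ifitm3, Igtp, Insig1, Itgam, Lgals3bp, Mmp9, Osmr, Pmvk, Rsad2, Serping1, Socs3, Sqle, Stat2, Stat3 and Tap1. Some listed genes are not reported here by name. The members and the lists were chosen with earlier results of these data known. Alternatives were another pseudocount, filter or scaling, no sex covariate, limma-voom on the recovered reads, the PFC libraries alone, females alone, and each library left out.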

Additional observations from a re-analysis of the deposited data

Results flagged for a closer look

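Of 123 genes the text names, 3 had 1 PBS library far from the other 3. These were PBS 3 at 364 FPKM for Aldh1l1 and 255 FPKM for Aqp4, and PBS 4 at 0.615 FPKM for Isg15. Chance alone flags about 1 in 20 groups. The 3 LPS libraries were not tested this way.

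The LPS change differed between IP and input for 26 of the named genes, by the test of the difference itself. The differences, log2 change in the IP minus that in the input, were Acss2 (-0.54), Aldh1a7 (-1.44), Apobec1 (-1.19), Bst2 (1.52), Fcer1g (1.62), H2-K1 (-0.84), H2-T23 (2.58), Hist1h2bf (-1.31), Ifi27 (0.90), Ifi44 (2.61), Ifitm3 (1.24), Iigp1 (2.23), Irf9 (0.76), Isg15 (2.52), Itgam (1.26), Itgb2 (1.82), Lacc1 (-1.04), Lss (-0.61), Mmp9 (1.90), Mvk (-0.58), Myo1g (1.88), Oasl2 (2.20), Pmvk (-0.58), Stat2 (0.81), Tmem37 (-1.56), Wfdc17 (2.89). The part of other cell types in these differences was not tested.

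The LPS change differed between the days for 28 of the named genes. The differences, log2 change at day 2 minus that at day 1, were Abca1 (0.76), Acss2 (-0.58), Aldh1l1 (-0.36), Amigo2 (-1.73), Aqp4 (0.34), Cd74 (1.35), Csf1r (1.34), Cybb (1.76), Fbln5 (-1.45), Fkbp5 (-2.38), H2-Aa (1.49), Itgb2 (1.79), Kcnj10 (0.82), Lao1 (-3.13), Lpin3 (-0.98), Lyz2 (1.86), Map3k6 (-3.44), Mpeg1 (1.79), Myo1g (1.87), Osmr (-1.20), Padi2 (1.53), Plin4 (-2.58), Saa3 (-2.99), Slc7a11 (0.67), Slco4a1 (-2.76), Srebf1 (0.60), Tm7sf2 (-0.68), Tmem37 (-1.21). Day and sequencing project cannot be told apart.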

How the results depend on the processing

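The difference of LPS changes between IP and input was called for 177 genes with a pseudocount of 1. Without the sex covariate 232 genes were lower after LPS. With the PFC libraries alone 704 genes were called, 190 of them lower. With female libraries only, 2 LPS and 2 PBS of PFC, 310 were called, 267 higher and 43 lower. This fit held 8 libraries, as the females of VCX were included. For it a gene was tested where at least 2 libraries reached 0.5 FPKM. Leaving out each of the 7 libraries in turn gave 610 to 994 calls, 450 to 687 higher and 160 to 307 lower, 58 to 130 for IP minus input and 365 to 680 for day 2 minus day 1. Between 53.5% (without LPS 1) and 78.3% (without PBS 3) of the 1072 calls were kept, and none changed sign. The share of calls that were higher was 64.9%, and 54.6% without rescaling. For IP minus input it was 58.3%, and 70.5% with median-ratio factors. limma-voom on the recovered reads called 1220 genes. No result reversed under any alternative run. PFC minus VCX stayed at 0 calls wherever it was refitted. The differences of LPS changes were not refitted with the PFC libraries alone or with female libraries only. Of 34 named genes that were called, all 34 passed under the other pseudocounts, filters and scalings. limma-voom lost 3, the model with no sex covariate 2, the PFC libraries alone 4 and female libraries only 7, as given beside these genes. The macrophage list had 11 calls with a minimum of 1 FPKM and the neutrophil list 7 with the PFC libraries alone. With females only, 19 interferon effectors and 4 pan-reactive genes were called. The causes were not tested. No paired analysis was possible because the replicate numbers were given in accession order and the labels pair no libraries. Genes under the filter on low values were not tested, and the size of change detectable at each level was not measured.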
